A study of Mus musculus with 3 samples.

Results

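A group of 10 genes of lipid-associated and repair macrophages was followed across the cells of the pancreas, namely Spp1, Gpnmb, Fabp4, Fabp5, Fn1, Ctsk, Trem2, Lpl, Marco and Msr1. They are 10 of the 31053 genes in the count matrices and were matched by their symbols. The list was chosen on measured values of these same libraries, as genes of a macrophage state rich in Arg1, so their levels in that state and their differences between PBS and WGP are a description and not a test.

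The study asked which immune cells enter the pancreas after whole β-glucan particles (WGP), a particulate yeast β-glucan given by intraperitoneal injection. Single-cell RNA sequencing was performed on sorted live CD45+ pancreas cells in 3 libraries, 1 after PBS (phosphate-buffered saline) and the others taken 3 days (3-day WGP) and 7 days (7-day WGP) after the particles. The methods of the study describe wild-type C57BL/6J mice of both sexes aged 6 to 8 weeks, but neither sex nor the number of pooled mice is labelled for a library. With 1 library per group there is no replicate spread and no test was made, and every interval below is a 95% interval that covers counting error only.

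The libraries held 48219246 to 56849043 unique molecular identifiers (UMIs, counts of captured RNA molecules). Of the barcodes with at least 1000 UMIs and at most 30% mitochondrial UMIs, 5029 PBS, 4689 3-day WGP and 4035 7-day WGP cells remained after doublet removal, with median depths of 5500, 5570 and 7806 UMIs. Between 1 and 7 barcodes were shared by a pair of libraries, where 2.78 to 3.47 would be drawn at random. Cells were clustered without the 10 genes and without the pathway genes named below. Cluster names rest on marker lists and stand for cells like that type. The sort also held cells that are not leukocytes, with clusters of acinar, endothelial, fibroblast and erythroid markers, and these are reported with the others.

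Monocytes and macrophages numbered 856 PBS, 752 3-day WGP and 1438 7-day WGP cells, and fell into 8 states. They came from 3 clusters that met the marker rule and from 2 smaller ones, of 91 and 78 cells, that fell short of it and were added because monocyte and macrophage markers were their best list. The Arg1 macrophages (Arg1, Saa3, Ecm1) held 9, 339 and 224 cells in these libraries. Of the 6 markers on their list 4 were raised against the other cells of the class, with a mean log2 fold of 1.93. The list of large peritoneal macrophages came next in this state, at 1.22. A sub-cluster led by Cd72, Ms4a7 and Pmepa1, which met no marker list, held 248, 116 and 51 cells. The others were resident macrophages (341, 50 and 11 cells), Ly6C-high monocytes (24, 150 and 376), inflammatory macrophages (14, 35 and 669), Ly6C-low patrolling monocytes (117, 40 and 102) and small unnamed sub-clusters led by Retnla, Ear2 and Lyz1 (71, 10 and 5) and by Cxcl13, Vsig4 and Lyve1 (32, 12 and 0).

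Transcripts of the sex chromosomes differed between the libraries in some cell types. Xist, an RNA of the inactive X chromosome in female cells, was seen without a chromosome Y transcript in 99.3% of the PBS monocytes and macrophages that held either kind, in 13.6% of the 3-day WGP cells and in 49.8% of the 7-day WGP cells. Among T cells the same share was 44.1%, 40.5% and 40.7%. Each library therefore held cells of both kinds, in unlike mixtures from cell type to cell type, and levels in both kinds of cells are given beside the results.

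Macrophages that clear dying cells or lipid take it up through receptors such as Trem2, Marco and Msr1, break it down in lysosomes and carry the released fatty acids on binding proteins such as Fabp4 and Fabp5. Cells of this kind, called lipid-associated or scar-associated macrophages in fat, liver and lung, often express Spp1 and Gpnmb together with Trem2. In the pancreas, tissue macrophages surround acini and islets, while macrophages of the peritoneal cavity express Marco and the transcription factor Gata6.

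RefSeq promoters were matched for 5 of the members, with 2 starts for Spp1, and not for Fabp4, Fabp5, Fn1, Lpl and Msr1. The 250 bases before the start are shown for Spp1, Gpnmb and Ctsk, each of which was seen more often in Arg1 macrophages with another of the 3 (below), on GRCm38.p6, with letters of GAGGAAG (a PU.1 motif, on either strand) in capitals. They come from chr5:104434861-104435110, chr6:49036268-49036517 and chr3:95498960-95499209, all on the plus strand.
Spp1: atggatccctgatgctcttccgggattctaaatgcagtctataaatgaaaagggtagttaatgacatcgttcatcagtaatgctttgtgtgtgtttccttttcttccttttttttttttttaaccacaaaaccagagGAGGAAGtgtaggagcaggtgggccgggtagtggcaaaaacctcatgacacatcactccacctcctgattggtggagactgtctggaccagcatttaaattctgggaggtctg
Gpnmb: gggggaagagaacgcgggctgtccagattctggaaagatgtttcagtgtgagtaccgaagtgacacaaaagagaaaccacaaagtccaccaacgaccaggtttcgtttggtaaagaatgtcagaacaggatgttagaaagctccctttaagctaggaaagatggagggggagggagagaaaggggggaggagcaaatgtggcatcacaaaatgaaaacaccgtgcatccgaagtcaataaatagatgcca
Ctsk: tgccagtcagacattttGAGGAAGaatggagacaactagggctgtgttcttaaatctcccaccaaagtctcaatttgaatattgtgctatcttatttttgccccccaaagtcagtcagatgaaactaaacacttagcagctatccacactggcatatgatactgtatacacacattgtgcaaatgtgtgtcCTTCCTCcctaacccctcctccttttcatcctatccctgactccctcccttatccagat

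GAGGAAG lay in 4 of the 6 member promoters, those of Ctsk, Marco, Spp1 and Trem2, and in 10.6% of the 32851 mouse promoters searched over the same 250 bases. The Ctsk promoter held it on both strands, 233 and 59 bases before the start, and the Spp1 promoter held it 113 bases before the start. TGANTCA (AP-1) and AGGTCA (a nuclear receptor half-site) were in the Trem2 promoter alone and in 6.75% and 14.0% of all promoters. CACGTG (an E-box of MiT/TFE factors, in 6.02% of all promoters) and TCATGTG (their M-box, in 3.25%) were in none of the 6. No motif holds another, both strands were searched, and a match of letters is not a binding site.

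In monocytes and macrophages as a whole, 8 of the 10 members were higher 3 days after WGP than in PBS and lower at 7 days than at 3. Levels are given as CPM, the UMIs of a gene relative to all UMIs of the same cells of a library, which follows both the number of cells in a state and the RNA per cell, and the sums cannot separate those. At 3 days 8 of the 10 members were at least 2-fold higher than in PBS, against 5.42% of the 6214 genes tested, and 0 were at least 2-fold lower, against 5.49%. At 7 days 5 (Gpnmb, Fabp4, Fabp5, Ctsk and Marco) were at least 2-fold higher than in PBS (6.19% of 6159 genes) and 2 (Trem2 and Lpl) were at least 2-fold lower (8.98%). Between 3 and 7 days 0 were at least 2-fold higher (1.94% of 5829 genes) and 5 (Spp1, Fabp4, Fn1, Ctsk and Lpl) were at least 2-fold lower (3.26%). Over all genes 337 were higher and 341 lower at 3 days, and 417 and 262 with TMM scaling factors. At 7 days these were 381 and 553, and 549 and 378 with TMM factors. Between 3 and 7 days they were 113 and 190, and 150 and 151 with TMM factors. The median log2 ratio of the members was 2.19 at 3 days, where that of all genes was -0.04, and 0.91 at 7 days, where that of all genes was -0.13. Since the members were picked for their levels after WGP, the background shares are given for scale and nothing is read from the difference.

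**Figure D1:**
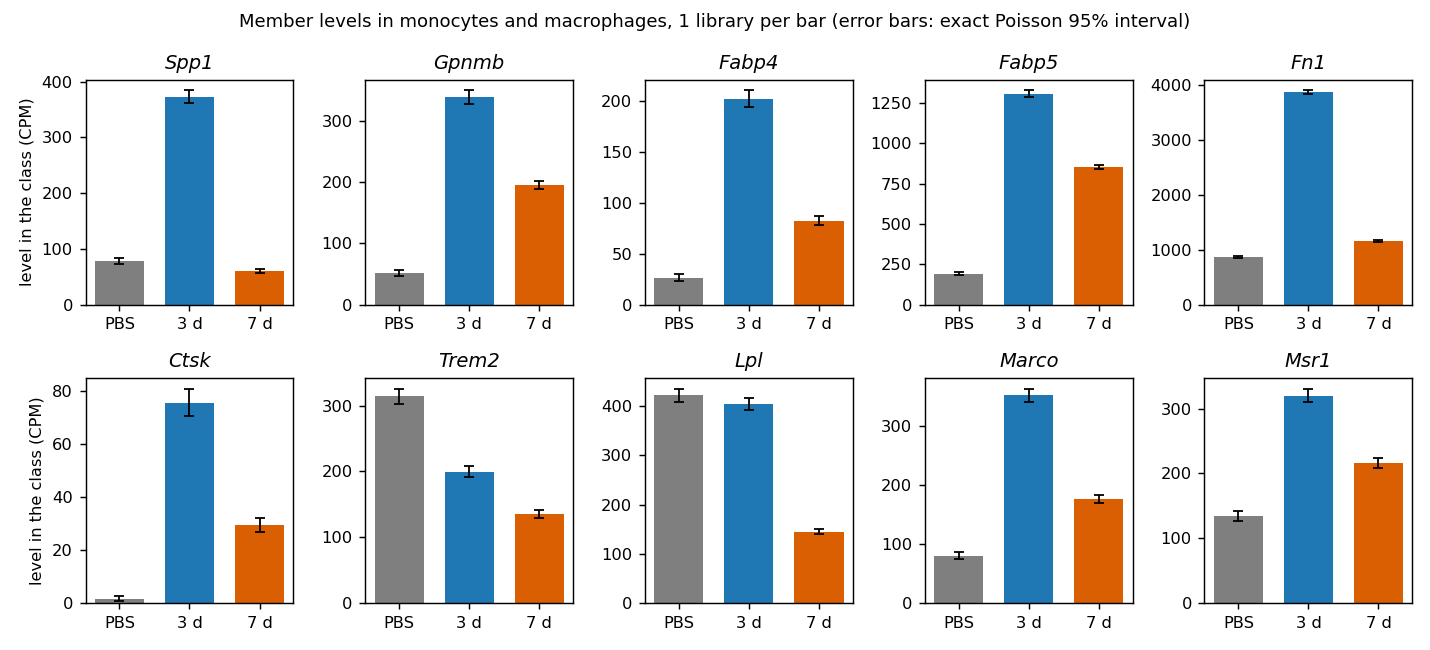
Level of each member (CPM, own axis from 0 in each panel) in all monocytes and macrophages of the PBS, 3-day WGP and 7-day WGP libraries, with exact Poisson 95% intervals as error bars. The 3-day bar is the highest for 8 members, while Trem2 and Lpl are highest in PBS.

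Spp1 (chr5:104435118-104441050, GRCm38, plus strand) encodes osteopontin, a secreted matrix protein that binds CD44 and integrins. It stood at 78.2 CPM (72.6 to 84.1) in PBS, 372.7 (361.6 to 384.1) at 3 days and 60.2 (56.5 to 64.0) at 7 days. It was the member with a rise and a return below the start, 4.77-fold higher at 3 days and 0.77 times the PBS level at 7 days. Fn1 (chr1:71585520-71653200, minus strand) encodes fibronectin, a matrix glycoprotein made by fibroblasts and by many monocytes. It stood at 873 CPM in PBS, 3864 at 3 days and 1156 at 7 days, so that its level was 4.43-fold higher at 3 days and 1.32-fold at 7 days. These ratios rest on the small PBS sub-clusters described below: without sub-clusters of under 100 cells the log2 ratios of Fn1 were 3.61 and 1.85 in place of 2.15 and 0.41.

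Gpnmb (chr6:49036546-49070929, plus strand) is a transmembrane glycoprotein of lysosome-rich phagocytes and osteoclasts. Its level was 52.0 CPM (47.4 to 56.9) in PBS, 338.8 (328.2 to 349.7) at 3 days and 195.5 (188.9 to 202.3) at 7 days, and unlike Spp1 it was still 3.76-fold above PBS at 7 days. Ctsk (chr3:95499256-95509362, plus strand) encodes cathepsin K, the lysosomal protease with which osteoclasts degrade collagen. With 14, 861 and 491 UMIs in the class, it stood at 1.52 CPM (0.83 to 2.54) in PBS and reached 75.6 CPM (70.6 to 80.8) at 3 days and 29.3 (26.7 to 32.0) at 7 days. The log2 ratio to PBS was 5.64 (4.89 to 6.52) at 3 days and 4.27 (3.51 to 5.15) at 7 days, with wide intervals set by the 14 PBS UMIs.

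The fatty acid binding proteins lie 187480 bases apart on chromosome 3, at chr3:10204088-10208576 (Fabp4, minus strand) and chr3:10012548-10016607 (Fabp5, plus strand). Fabp4, best known from adipocytes and capillary endothelium, stood at 26.4 CPM in PBS, 202.1 at 3 days and 82.6 at 7 days. Fabp5 stood at 190.8 CPM (182.0 to 199.96) in PBS, 1306 (1285 to 1327) at 3 days and 852 (838 to 866) at 7 days. At 3 days Fabp4 was 7.65-fold and Fabp5 6.84-fold above PBS, and at 7 days 3.12-fold and 4.46-fold.

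Lpl (chr8:68880491-68907448, plus strand) encodes lipoprotein lipase, which releases fatty acids from triglyceride-rich lipoproteins. It did not follow the other lipid genes, with 421.9 CPM (408.7 to 435.3) in PBS, 403.9 (392.3 to 415.7) at 3 days and 145.1 (139.4 to 151.0) at 7 days, and the sign of its 3-day log2 ratio to PBS, -0.06 here, turned to 0.0724 with TMM factors and to 0.65 with each library clustered on its own. Trem2 (chr17:48346401-48354147, plus strand), a lipid-sensing receptor that signals through Tyrobp, was highest in PBS, at 314.1 CPM (302.8 to 325.7), and stood at 199.6 (191.4 to 207.9) and 135.4 (129.9 to 141.1) at 3 and 7 days. Only the 7-day ratios of these genes passed 2-fold, with log2 values of -1.54 (-1.61 to -1.47) for Lpl and -1.21 (-1.29 to -1.13) for Trem2. Neither passed under every setting, since Trem2 was at -0.95 with TMM factors and Lpl at -0.83 with each library clustered on its own and -0.93 without sub-clusters of under 100 cells or with only the named clusters.

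The scavenger receptors were both highest at 3 days. Marco (chr1:120474538-120505024, minus strand), which binds bacteria and particles, stood at 79.4 CPM in PBS, 351.3 at 3 days and 175.4 at 7 days. Msr1 (chr8:39581685-39642673, minus strand), the receptor for modified lipoproteins, stood at 134.5 CPM, 320.1 and 216.1 in the same order. Marco was 4.42-fold and 2.21-fold above PBS at 3 and 7 days, while Msr1 was 2.38-fold and 1.61-fold above it. Without sub-clusters of under 100 cells the log2 ratios of Marco were 4.00 and 3.03 in place of 2.15 and 1.14, and with each library clustered on its own its 7-day ratio, at 0.96, did not reach 2-fold.

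Beside these ratios stand the levels in the cells with Xist and in those with a chromosome Y transcript. In the 3-day library Spp1 had 2 UMIs over the 76 class cells with Xist, 1.75 CPM (0.21 to 6.32), and 3119 UMIs over the 482 cells with a Y transcript, 394.3 CPM (380.6 to 408.4). Gpnmb stood at 9.62 CPM (4.80 to 17.2) in the cells with Xist and 380.8 (367.3 to 394.7) in those with a Y transcript, Ctsk at 2.62 (0.54 to 7.67) and 85.2 (78.9 to 91.9), and Fabp5 at 225.7 and 1443. The high 3-day levels of these 4 genes were seen in cells with a Y transcript, of which the PBS class held 6 in 856.

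For the other members the 3-day cells of both kinds were nearer to each other, with Fn1 at 4670 CPM in the cells with Xist and 3940 in the cells with a Y transcript, Fabp4 at 225.7 and 215.4, Marco at 360.4 and 382.1, Msr1 at 319.3 and 335.5 and Lpl at 495.1 and 404.2. Trem2 stood at 86.6 (70.4 to 105.4) and 210.8 (200.8 to 221.1). At 7 days, when 566 cells had Xist and 571 a Y transcript, Spp1 stood at 44.4 and 43.1 CPM and Gpnmb at 258.8 and 170.1. Within cells with Xist, PBS against 7-day WGP, Gpnmb was at 53.1 and 258.8 CPM, Ctsk at 1.56 and 41.2, Fabp5 at 195.9 and 981, and Trem2 at 318.0 and 151.2. In cells with Xist the 7-day differences of these genes from PBS were thus present as well. The 76 3-day cells with Xist had log2 ratios to PBS of -5.51 for Spp1, -2.46 for Gpnmb and -1.88 for Trem2. Those of Ctsk and Fabp5 were 0.75 and 0.20. The high 3-day levels of Spp1 and Gpnmb were therefore not seen in cells with Xist. For lack of PBS cells with a Y transcript, the sex of the mice and WGP cannot be told apart at 3 days.

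**Figure D2:**
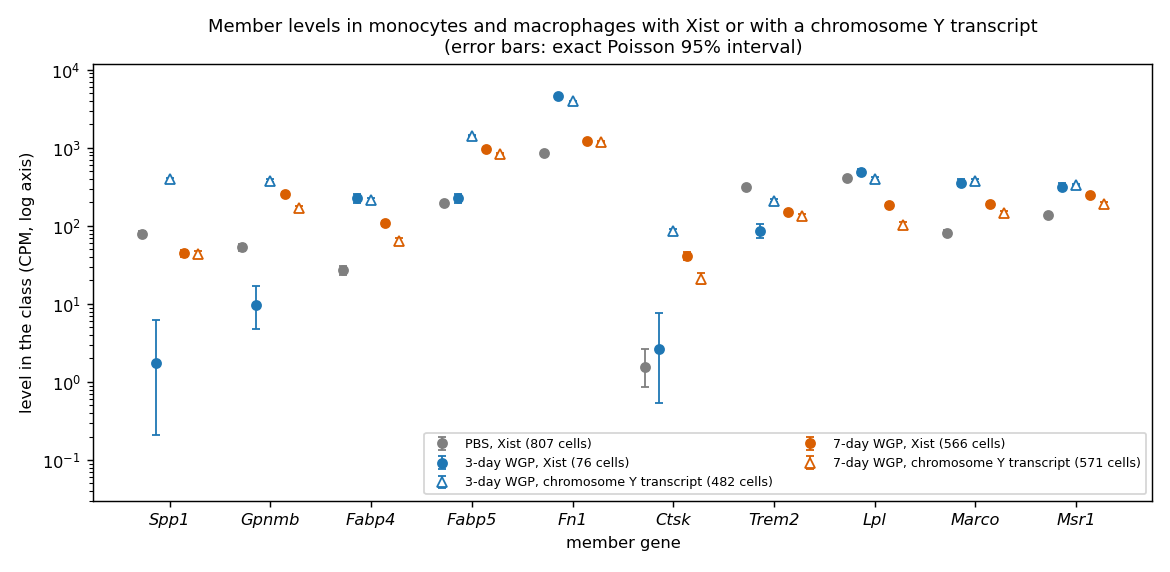
Level of each member (CPM, log axis) in class cells that held Xist (circles) or a chromosome Y transcript (triangles), coloured by library, with exact Poisson 95% intervals. At 3 days Spp1, Gpnmb, Ctsk and Fabp5 were low in the 76 cells with Xist and high in the 482 cells with a Y transcript, and at 7 days the Spp1 levels of both kinds of cells were 44.4 and 43.1 CPM. PBS cells with a Y transcript were too few to plot.

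The cells that held a member's UMIs differed between the libraries. In PBS the sub-cluster of Cd72, Ms4a7 and Pmepa1, 4.93% of the library, held 89.0% (86.0 to 91.6%) of all Gpnmb UMIs and 56.1% (54.3 to 57.9%) of all Trem2 UMIs. At 3 days Arg1 macrophages held 61.1% of Spp1, 54.7% of Gpnmb, 49.7% of Fabp5, 85.1% of Ctsk, 82.3% of Fn1 and 89.6% of Marco. At 7 days their share was 35.5% of Spp1 and 31.9% of Msr1, but 69.3% of Gpnmb and 78.0% of Marco. The inflammatory macrophages, the most numerous state at 7 days, held 29.9% of Spp1 and 40.3% of Msr1 UMIs in that library.

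**Figure D3:**
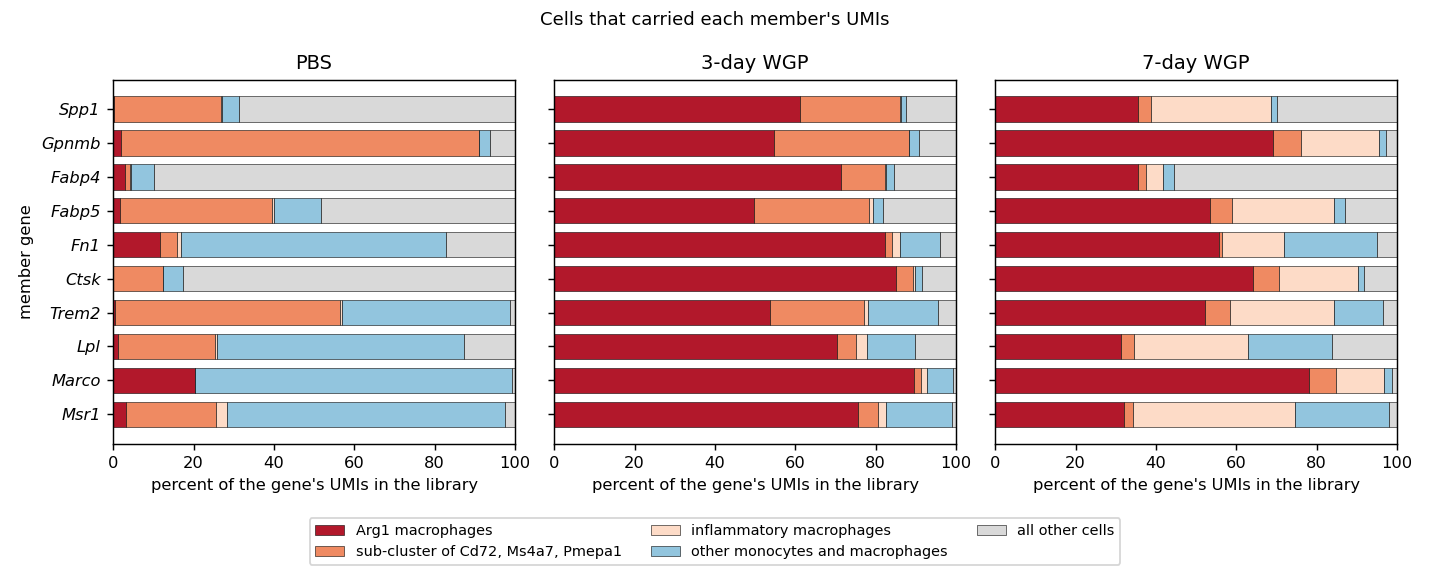
Percent of each member's UMIs in a library that lay in Arg1 macrophages, in the sub-cluster of Cd72, Ms4a7 and Pmepa1, in inflammatory macrophages, in other monocytes and macrophages and in all other cells (stacked to 100%). In PBS other cells held most of Spp1, Fabp4 and Ctsk, and at 3 days Arg1 macrophages held 49.7% or more of every member.

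Within the Arg1 macrophages the members did not move as a block from 3 to 7 days. Gpnmb stood at 368.9 CPM (354.1 to 384.3) at 3 days and 659.5 (633.0 to 686.8) at 7 days, Fabp5 at 1435 and 2476, and Trem2 at 202.7 and 347.3. Spp1 was instead at 469.8 CPM (453.0 to 487.0) and 144.0 (131.8 to 157.0), Fn1 at 5997 and 3209, and Lpl at 572.4 and 256.3. Past 2-fold were Spp1, with a log2 ratio of 7-day to 3-day WGP of -1.71 (-1.84 to -1.57), and Lpl, with -1.16 (-1.27 to -1.05). Fabp4 was level at 309.2 and 313.4 CPM, and Marco, Msr1 and Ctsk had log2 ratios of 0.19, -0.41 and -0.39.

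The 3-day Arg1 macrophages were 16 cells with Xist and 246 with a Y transcript, and the 7-day ones 79 and 101. The 16 cells with Xist had 1 Spp1 UMI and 3 Gpnmb UMIs, 2.80 CPM (0.07 to 15.6) and 8.41 CPM (1.73 to 24.6), beside Fn1 at 12386 CPM and Fabp4 at 664.6. At 7 days the cells with Xist and those with a Y transcript stood at 139.8 and 145.8 CPM for Spp1 and at 792.8 and 598.5 for Gpnmb. Markers of large peritoneal macrophages (Gata6, Icam2, Prg4, Ltbp1, Selp, Garnl3, Timd4) were also present in this state, all 7 above 0, at a sum of 603 CPM at 3 days and 324 at 7 days, led by Prg4 at 340.7 and 154.1 CPM.

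Only 9 PBS cells fell in the Arg1 state, and they differed from its WGP cells in which members they held. Their Fn1 level was 9117 CPM (8591 to 9667), Marco 1221 (1033 to 1433) and Fabp4 561.7 (437.0 to 710.8), each above both WGP values. Ctsk had 0 UMIs there, which allows up to 24.4 CPM, and Spp1 had 2 UMIs.

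The sub-cluster of Cd72, Ms4a7 and Pmepa1, present in all 3 libraries, also differed between PBS and WGP. Its cells were not uniform (below), and their mixture was not held fixed between libraries. Of its cells with Xist or a Y transcript, 98.7% had Xist alone in PBS, 12.3% at 3 days and 69.7% at 7 days. Spp1 stood there at 227.5 CPM (209.9 to 246.2) in PBS, 951.3 (898.6 to 1006) at 3 days and 99.3 (73.2 to 131.6) at 7 days. Gpnmb stood at 167.7, 1115 and 481.8 CPM and Fabp5 at 477.4, 4087 and 1822, which put the log2 ratios to PBS at 2.73 and 1.52 for Gpnmb and at 3.098 and 1.932 for Fabp5. Trem2 went the other way, at 606.5 CPM in PBS, 433.4 at 3 days and 301.9 at 7 days, and Lpl did too, at 397.1, 190.9 and 200.6.

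Marco was nearly absent from this sub-cluster in PBS, with 1 UMI, and had 66 UMIs (51.6 CPM) at 3 days and 206 (426 CPM) at 7 days. At 3 days 1 cell held 45 of the 66. At 7 days 5 of 51 cells held all 206, and 1 of them held 175, so that 1 cell set most of that level. Fabp4 stood at 12.2 CPM, 229.2 and 119.9. The 3-day cells of the sub-cluster were 10 with Xist and 71 with a Y transcript, and Spp1 and Gpnmb had 0 UMIs in the former, which allows up to 26.0 CPM, against 1088 and 1178 CPM in the latter. In the PBS cells with Xist the same genes were at 233.9 and 173.2 CPM.

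The remaining states were lower in most members. Resident macrophages held Trem2 at 276.0 CPM in PBS and 159.3 in 3-day WGP and Lpl at 227.9 and 225.2. Fn1 stood there at 6.60, 19.1 and 20.3 CPM in PBS, 3-day and 7-day WGP. The 7-day value rests on 11 cells with 98477 UMIs of all genes, so that few Fn1 UMIs set it. Ly6C-high monocytes held Fn1 at 1008, 1545 and 972 CPM and Msr1 at 100.8, 149.1 and 197.7 in PBS, 3-day and 7-day WGP. In inflammatory macrophages at 7 days Fabp5 was at 538.4 CPM, Gpnmb at 84.4 and Spp1 at 55.1, each below the Arg1 macrophages of that library. Patrolling monocytes held Fabp4 at 97.8, 68.1 and 81.1 CPM, with overlapping intervals.

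The small sub-clusters of the class in PBS held some of the highest levels. The 71 PBS cells of the sub-cluster of Retnla, Ear2 and Lyz1 had Fn1 at 3732 CPM (3615 to 3852) and Lpl at 1627 (1550 to 1706), the highest Lpl level of any state. Whether these cells are macrophages is not settled by the markers. Among all cells, the cluster of 78 cells led by the same 3 genes had 2 of 7 monocyte and macrophage markers raised. Its mean log2 fold was 0.45 for that list and 0.44 for the cDC2 list of dendritic cells. The 32 PBS cells of the sub-cluster of Cxcl13, Vsig4 and Lyve1 had Marco at 1385 CPM (1273 to 1504), Msr1 at 671.6 (594.4 to 756.0) and Fn1 at 4172 (3976 to 4375), and held 76.5% of the Marco UMIs of that library. Its PBS cells held resident macrophage markers at a sum of 5378 CPM and large peritoneal macrophage markers at 1811 CPM. These sums run over lists of unlike length and follow their most abundant genes. By mean log2 fold over all libraries the large peritoneal list came first, at 1.08, and the resident list next, at 0.88, too close for a name.

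**Figure D4:**
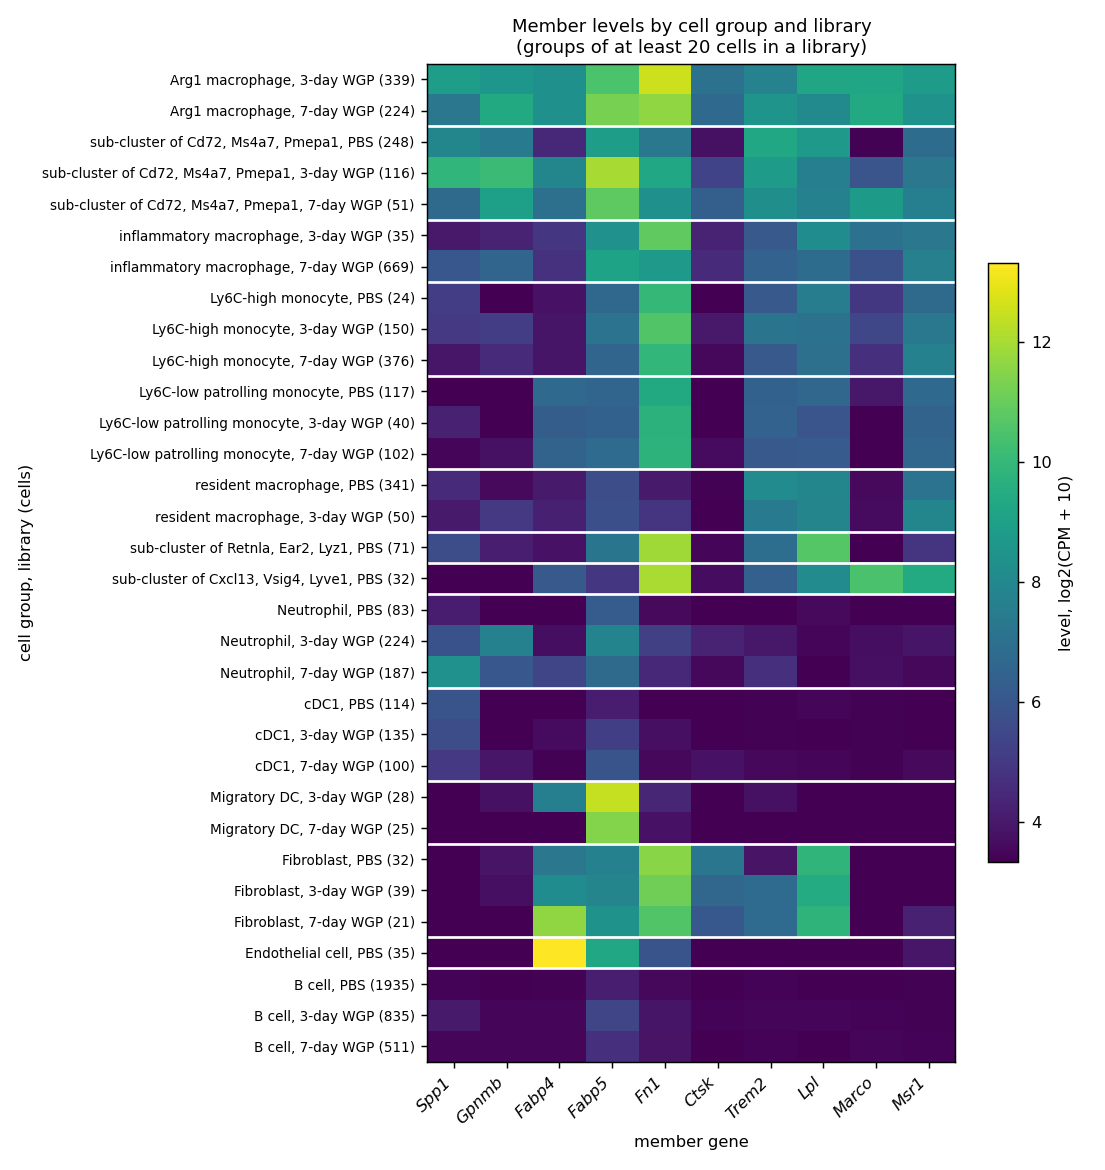
Level of each member as log2(CPM + 10) in cell groups of at least 20 cells in a library, with the number of cells in brackets. In the sub-cluster of Cd72, Ms4a7 and Pmepa1 Gpnmb and Fabp5 are highest at 3 days and Marco is near the bottom of the scale in PBS. Fabp4 is highest in endothelial cells, Fabp5 in migratory dendritic cells and Marco in the sub-cluster of Cxcl13, Vsig4 and Lyve1 and in Arg1 macrophages. B cells are at the bottom of the scale.

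Single cells of the same state differed widely. At 3 days the tenth of Arg1 macrophages richest in a member, 34 cells, held 91.2% of the Marco UMIs and 72.7% of the Spp1 UMIs, but 29.0% of the Msr1 and 31.0% of the Fn1 UMIs. Marco was seen in 82 of the 339 cells, with up to 354 UMIs in a cell, and Msr1 in 310 with up to 37. After each cell was thinned to 1000 UMIs, the median Arg1 macrophage held 3 of the 10 members at 3 and at 7 days, and 15.9% and 10.3% of them held 5 or more. In the sub-cluster of Cd72, Ms4a7 and Pmepa1 the mean number was 1.08, 2.29 and 1.53 in PBS, 3-day and 7-day WGP, and in B cells it was at most 0.0274.

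The members were not all seen in the same Arg1 macrophages. At 3 days Fabp5 was seen in 59 of the 75 cells with a Gpnmb UMI, 78.7% (67.7 to 87.3%), and in 37.1% (31.3 to 43.3%) of the 264 cells without one. Ctsk was seen in 26.7% (17.1 to 38.1%) of the cells with Gpnmb and 5.68% (3.21 to 9.20%) of those without, and Spp1 in 29.3% (19.4 to 41.0%) and 13.6% (9.74 to 18.4%). Ctsk was likewise seen in 29.3% (18.1 to 42.7%) of the 58 cells with an Spp1 UMI and 6.41% (3.84 to 9.94%) of the 281 without. The intervals of cells with and without Gpnmb did not overlap for any of these 3 genes. The 3 were named from all the other members compared. The intervals treat the cells of 1 library as independent, so this is a description and not a test. The mixture of cells with Xist and with a Y transcript, 16 and 246 of these 3-day cells, was not held fixed. In the 3-day class Gpnmb and these 3 genes were all lower in cells with Xist. The part of that mixture in the pairs was not tested. A cell without a UMI after thinning can still hold the gene: without thinning Gpnmb was seen in 209 of the 339 cells, Fabp5 in 284, Ctsk in 164 and Spp1 in 148, and the pairs were counted in thinned cells only.

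At 7 days Fabp5 was seen in 90.3% (80.1 to 96.4%) of the 62 cells with Gpnmb and 48.1% (40.2 to 56.1%) of the 162 without, Ctsk in 14.5% (6.86 to 25.8%) and 2.47% (0.68 to 6.20%), Spp1 in 17.7% (9.20 to 29.5%) and 4.32% (1.75 to 8.70%), and Fabp4 in 32.3% (20.9 to 45.3%) and 8.02% (4.34 to 13.3%). Fn1 went the other way at that time, in 58.1% (44.8 to 70.5%) of the cells with Gpnmb and 78.4% (71.3 to 84.5%) of those without. A UMI of any of the peritoneal markers was seen in 6.67% of the 3-day cells with Gpnmb and 23.5% of those without, and in 1.61% and 19.8% of the 7-day cells.

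Cells with Marco held the members differently. At 3 days Trem2 was seen in 0 of the 42 cells with a Marco UMI and in 54 of the 297 without, 18.2% (13.96 to 23.05%). Without thinning Trem2 was seen in 259 and Marco in 82 of the 339 cells, so that some cells held both. A peritoneal marker was seen in 40.5% (25.6 to 56.7%) of the cells with Marco and 16.8% (12.8 to 21.6%) of the others. Lpl was seen in 21 of 42 (34.2 to 65.8%) and 32.7% (27.4 to 38.3%), with overlapping intervals. Arg1 itself was seen in 66.7% and 55.2%, with overlapping intervals. At 7 days Trem2 was in 20.4% (10.2 to 34.3%) of the 49 cells with Marco and 28.0% (21.5 to 35.3%) of the 175 without, with overlapping intervals.

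In the sub-cluster of Cd72, Ms4a7 and Pmepa1 at 3 days Fabp5 was seen in 45 of the 46 cells with Gpnmb, 97.8% (88.5 to 99.9%), and in 32.9% (22.1 to 45.1%) of the 70 without, while Lpl was seen in 0 of the 46 and in 31.4% (20.9 to 43.6%) of the 70. Without thinning Gpnmb was seen in 70 and Lpl in 58 of these 116 cells, so that some held both. In PBS Trem2 was seen in 15 of the 26 cells of this sub-cluster with an Spp1 UMI, 57.7% (36.9 to 76.6%). It was seen in 31.1% (25.1 to 37.6%) of the 222 without, with overlapping intervals.

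**Figure D5:**
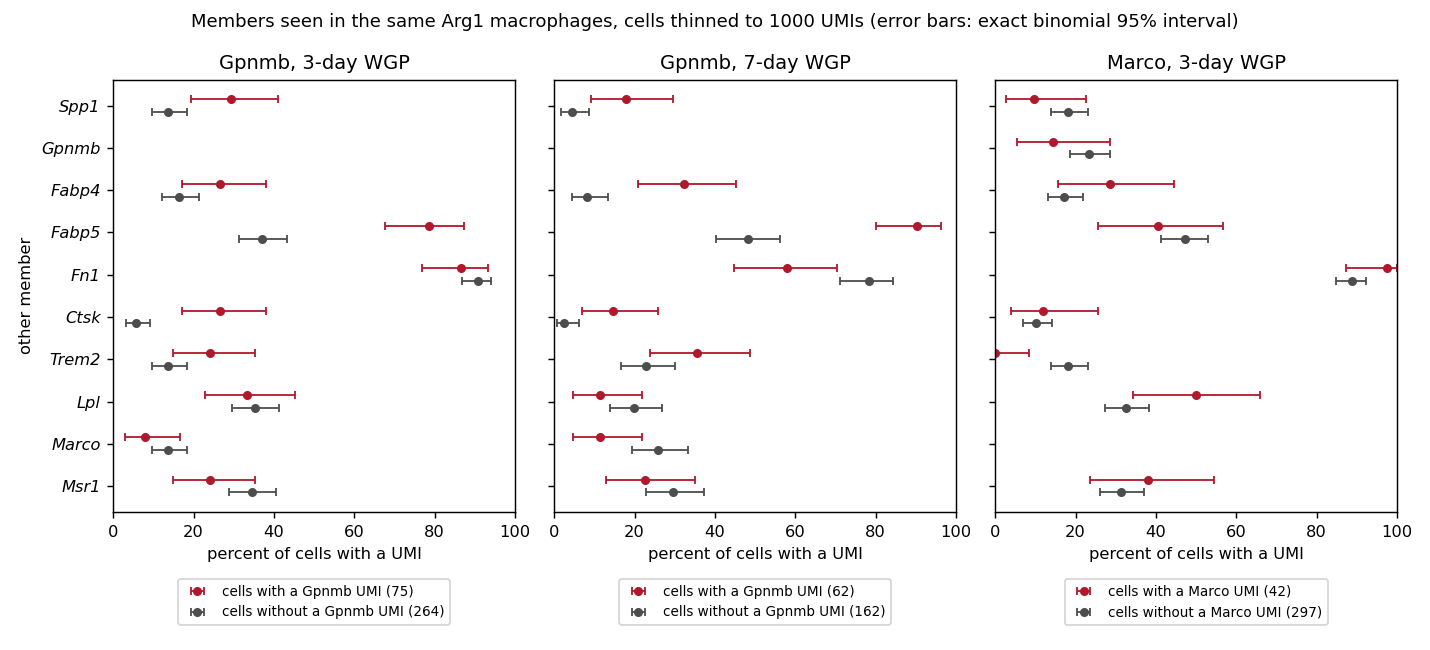
Percent of Arg1 macrophages with a UMI of each other member, in cells with (red) and without (grey) a Gpnmb UMI at 3 and 7 days and a Marco UMI at 3 days, after thinning to 1000 UMIs, with exact binomial 95% intervals and the number of cells in the legends. Fabp5, Ctsk and Spp1 were seen more often with Gpnmb, and Trem2 was seen in 0 of 42 cells with Marco. Cells with Xist, with a Y transcript or with neither were pooled.

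Free RNA, which drops into every cell's droplet, was estimated to make 0.919 to 1.77% of the RNA in lymphocytes, which would add at most 15.9 CPM of a member (Fabp5 and Fn1 at 3 days) to a cell. B cells, which lack these genes, held a UMI of a member in 0 to 1.57% of thinned cells in each library, at median depths of 3790 to 5007 UMIs, where Arg1 macrophages had 17657 at 3 days and 15568 at 7 days. Thinned Arg1 macrophages held a UMI in 10.3% (Ctsk) to 89.97% (Fn1) of cells at 3 days and in 5.80% (Ctsk) to 72.8% (Fn1) at 7 days.

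Several members were also held outside the class. In PBS 60.8% (58.8 to 62.8%) of all Spp1 UMIs lay in 8 cells led by Sst, Clu and Pyy, genes of islet and duct cells, at 11223 CPM, and in the 3- and 7-day libraries such cells held 6.73% and 6.12%. Endothelial cells (35 cells) held 83.6% (82.1 to 85.1%) of the PBS Fabp4 UMIs, at 10158 CPM. Fibroblasts held 79.0% (68.5 to 87.3%) of the few Ctsk UMIs in PBS, with levels of 140.4, 88.2 and 56.8 CPM in the 3 libraries, and Lpl at 912.8, 705.8 and 904.2.

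Fabp4 in fibroblasts stood at 147.0 CPM in PBS, 277.5 at 3 days and 3233 at 7 days, but 9.38%, 15.4% and 14.3% of 32, 39 and 21 thinned cells held a UMI, so that few cells set the 7-day level. Fabp5 was highest in migratory dendritic cells, at 4844, 5468 and 2794 CPM over 10, 28 and 25 cells. Fn1 in fibroblasts stood at 2942, 2233 and 1529 CPM. Marco, Msr1 and Trem2 were by contrast held almost wholly by monocytes and macrophages, with 98.9 to 99.3%, 97.5 to 99.1% and 95.7 to 98.9% of their UMIs over the libraries. The few fibroblasts still held Trem2 after WGP, at 4.39 CPM (0.53 to 15.9) in PBS, 102.7 (79.1 to 131.1) at 3 days and 102.7 (75.4 to 136.5) at 7 days. These levels rest on 2, 64 and 47 UMIs.

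Neutrophils held members of this group after WGP. Spp1 stood at 7.64 CPM (2.08 to 19.6), 47.6 (35.4 to 62.6) and 322.7 (278.1 to 372.4) in PBS, 3-day and 7-day WGP, and Gpnmb at 0, which allows up to 5.73 CPM, 202.4 (176.4 to 231.2) and 55.2 (37.8 to 78.0). These UMIs were in few cells, 9 of 224 and 12 of 187 for Spp1 at 3 and 7 days and 16 and 5 for Gpnmb. In the Neutrophil cluster the summed general markers of monocytes and macrophages stood at 10732, 4276 and 4753 CPM, with 0 of 7 at 0. The summed Arg1 macrophage markers stood there at 156.6, 1452 and 1790 CPM and those of inflammatory macrophages at 4563, 10994 and 16995, both higher after WGP as Spp1 and Gpnmb were, and their part in the result was not tested. Neutrophil markers stood at 296148, 107340 and 114415 CPM. Spp1 in cDC1, a dendritic cell that presents antigen to CD8 T cells, stood at 50.4, 41.7 and 21.9 CPM in the 3 libraries.

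Patterns over cell groups were described by the Pearson correlation of log2(CPM + 10) over 65 groups, each a cell type or state of at least 20 cells in a library, over 11426 genes. The groups share libraries and cells of 1 state recur in several, so these are descriptions with no test. Nearest to Gpnmb were Atp6v0d2 (0.88), a subunit of the lysosomal proton pump, Gdf15 (0.87) and Syngr1 (0.86), and nearest to Spp1 was Gpnmb itself (0.79). Nearest to Marco was Cd5l (0.93), a secreted protein of tissue macrophages, and Ms4a8a (0.94) was among the genes near Msr1. Trem2 was nearest to Pla2g15 (0.92), a lysosomal phospholipase, Lpl and Fn1 both to Lrp1 (0.92 and 0.91), a lipoprotein receptor, Ctsk to Ptges (0.85), Fabp5 to Papss2 (0.80) and Fabp4 to Thbd (0.83), a gene of endothelial cells. Between members the highest values were 0.88 for Fn1 with Lpl and 0.85 for Trem2 with Msr1, and the lowest was 0.17 for Spp1 with Fabp4.

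The pathways around the members were counted in the same way over the whole class, from whole lists, which were chosen with earlier results of these data known. Over all genes 5.42% were at least 2-fold higher and 5.49% lower at 3 days, with a median log2 ratio of -0.04, and 6.19% and 8.98% at 7 days, with a median of -0.13. Of 17 lysosomal genes, 3 were at least 2-fold higher than PBS at 3 days (Atp6v0d2, Ctsl, Ctss), and of 16 tested at 7 days 0 were higher. Their median log2 ratio was 0.45 and -0.16. The most abundant in Arg1 macrophages were Psap, a lysosomal lipid activator, at 3267, 5005 and 3877 CPM in the class, and the cathepsins Ctss (1901, 4085 and 3642) and Ctsb (3203, 4484 and 2007).

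Of 17 tested genes of lipid uptake, storage and efflux, 5 were at least 2-fold higher at 3 days (Acsl1, Fabp3, Hilpda, Nr1h3, Plin2) and 0 lower, and of 16 at 7 days 2 were higher (Acsl1, Hilpda) and 2 lower (Apoe, Cd36), with medians of 0.59 and 0.22. Plin2, which coats lipid droplets, stood at 315.9, 682.1 and 513.6 CPM in PBS, 3-day and 7-day WGP. Apoe, an apolipoprotein that macrophages secrete, stood at 14854 CPM in PBS, 7648 and 3868 after WGP, and Cd36, a fatty acid transporter, stood at 310.5, 419.3 and 139.1. Of the Lpl cofactors and inhibitors 1 of 5 reached the minimum level, Sel1l, at 61.5, 76.3 and 54.0 CPM.

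Of the receptors for osteopontin and fibronectin, 2 of 8 were at least 2-fold higher at 3 days (Cd44, Itgb7) and 1 lower (Itgb5), and at 7 days 1 was higher (Itgb7) and 2 lower (Itga9, Itgb5). Cd44 stood at 231.5, 555.5 and 384.4 CPM, and Itgb1 at 261.7, 375.3 and 219.6. None of the 7 genes of the Trem2 adaptor and signalling list passed 2-fold in any comparison, and the adaptor Tyrobp stood at 2488, 2109 and 2714 CPM in the class, in which Trem2 was lower after WGP.

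Of 9 other scavenger and efferocytosis receptors at 3 days, 2 were higher (Cd5l, Olr1) and 3 lower (Axl, Colec12, Stab1), and of 8 at 7 days 0 were higher and the same 3 lower. Cd5l stood at 37.0, 404.0 and 66.9 CPM and Cd68 at 610.3, 503.5 and 435.6. Among 5 tested genes of osteoclasts and MiT/TFE factors Acp5, the tartrate-resistant phosphatase of osteoclasts, was higher at both times, at 31.6, 156.3 and 66.4 CPM, and Mitf was at 37.8, 55.4 and 43.9. Among 12 matrix and repair genes Mmp14, Sdc4, Tgm2, Thbs1 and Vegfa were higher at both times, and at 7 days Igf1, Mmp12, Pdgfb and Timp2 were lower. Thbs1, a matrix protein that activates latent TGF-beta, stood at 28.2, 396.6 and 370.9 CPM, Lgals3 (galectin-3) at 1044, 1316 and 1406 and Timp2, an inhibitor of matrix proteases, at 668, 661 and 252.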

How the data were processed

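The authors sequenced 3' single-cell libraries and deposited raw count matrices (UMIs per gene and barcode) made with Cell Ranger 3.1.0 on mm10, per the labels, with no normalization and no cell annotation. Barcodes with at least 1000 UMIs and at most 30% mitochondrial UMIs were kept. Scrublet (scanpy 1.11.5) marked 0, 0 and 2 barcodes by its automatic threshold, so the highest scores were removed instead, at 0.8% per 1000 cells. Cells were clustered with Seurat 5.3.0 and sctransform 0.4.2 in R 4.3.3 on 3000 variable genes and 30 principal components, leaving out 101 genes (the members and the pathway lists), at a resolution of 0.8 for all cells, 0.4 for monocytes and macrophages and 1.2 for stroma. A cluster was named by its best marker list where the mean log2 fold reached 1, no fewer than 3 of its genes were raised, and the next list lay 0.5 lower. These thresholds and the stroma resolution were set after the clusters were seen. A stromal sub-cluster, or a cluster of low depth, also needed a marker of its best list among its leading genes. The cells of Sst, Clu and Pyy failed only this rule. Their fibroblast list had a mean log2 fold of 1.91, with 4 of 6 genes raised and the next list at 1.39.

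UMIs were summed per library and cell group and scaled to CPM, with exact Poisson intervals, and ratios had conditional binomial intervals. Counts past 2-fold used genes with at least 20 CPM in 1 of the 2 libraries and 1 CPM added to both. Shares of cells used cells thinned to 1000 UMIs with Clopper-Pearson intervals. A group with 0 UMIs was given the limit that 3 counts set. Counting intervals and limits cover neither animals nor library preparation. Gene positions came from GENCODE M21, promoters from RefSeq. edgeR 4.0.16 and DESeq2 1.42.0 served only to compute alternative scaling factors.

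All 10 members were named throughout. Of each pathway list the genes with the highest levels in Arg1 macrophages were named, and for each member the genes with the most similar pattern. A few results of these lists are not reported here. Genes past 2-fold were listed after their values were seen. The members, lists and comparisons were chosen with earlier results of these data known.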

Additional observations from a re-analysis of the deposited data

Results flagged for a closer look

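Summed over all cells of a group, Spp1 had opposite signs against PBS at the 2 times after WGP. In all monocytes and macrophages its log2 ratio to PBS was 2.253 at 3 days and -0.3783 at 7 days, and in the sub-cluster of Cd72, Ms4a7 and Pmepa1 it was 2.064 and -1.196. Both comparisons share the PBS library, each time is 1 library, and the difference between the times was not tested. The sign at 3 days was not held in cells with Xist and no Y transcript. In the 76 such class cells at 3 days the log2 ratio to PBS was -5.51. The 7-day ratio of the class was negative under every setting. With 6 PBS class cells that held a Y transcript, the sex of the mice and WGP cannot be told apart at 3 days.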

How the results depend on the processing

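No paired analysis was possible because each group was 1 library. In cells with Xist and no Y transcript (76 cells at 3 days), 4 members were at least 2-fold higher and 3 lower at 3 days than in PBS, with 224 and 166 of all genes, and between 3 and 7 days 4 members were higher and 3 lower, with 199 and 399 genes. The log2 ratio of 3-day WGP to PBS there was -5.51 for Spp1, -2.46 for Gpnmb and 0.25 for Lpl, and that of 7-day to 3-day WGP was 4.67 for Spp1, 4.75 for Gpnmb, 2.12 for Fabp5, 3.97 for Ctsk and 0.80 for Trem2. The cause was not tested.

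Lpl at 3 days against PBS also turned to 0.48 with log-normalized clustering, 0.65 with each library clustered on its own, 0.55 with only the 3 clusters that passed the naming rule, 0.56 without sub-clusters of under 100 cells, 0.0724 with TMM factors and 0.0718 with median-of-ratios factors. The choices of 3 clusters and of no small sub-clusters were added after seeing the data. Under all of these but the log-normalized clustering, 1 member in place of 2 was at least 2-fold lower at 7 days than in PBS, Lpl under the scaling factors and Trem2 under the others. With no minimum level 569 genes were higher and 1041 lower at 3 days, 591 and 1449 at 7 days, and 205 and 424 between 3 and 7 days. With 10 CPM added, 115 genes were lower at 7 than at 3 days. A minimum of 2000 UMIs, subtraction of free RNA and clustering with the members each left all 12 counts within 1.5 times. Removal of ribosome-rich barcodes took no cell out of the class, so it could not change these counts. All 20 shares of Arg1 macrophages with a UMI were higher without thinning, for example 76.4% for Trem2 and 24.2% for Marco at 3 days. Marco at 7 days against PBS was 0.87 with log-normalized clustering, and Fn1 was 1.196 with each library clustered on its own and 1.12 with only the 3 named clusters.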
